A study of Mus musculus with 27 samples.

Results

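A set of 9 genes of the Wnt/β-catenin pathway, chosen by name, was followed through 19 bulk RNA-seq libraries of mouse pluripotent stem cells: Axin2, Lef1, Sp5, Sp8, Nkd1, Tcf7, Tcf7l1, Dkk1 and Cdx1. All 9 were found among the 23604 genes used of the FPKM table, and all 9 passed the filter on low values. FPKM count the fragments of a transcript relative to its length and to all mapped fragments of the library, so levels of different genes can be set side by side. The question was how these genes stood in cells kept with the tankyrase inhibitor XAV939 and in cells kept without it.

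All cells are labelled wild type, and all bulk media were made on an N2B27 base. The mESCs (naive embryonic stem cells, 2 libraries) were grown on gelatin with hLIF, 1 µM of the MEK inhibitor PD035901 and 3 µM of Chir99021, a GSK3 inhibitor that turns the Wnt pathway on. EpiLCs (epiblast-like cells, 2 libraries) and Epiblastoids (lumen-forming balls of cells in Matrigel, 1 library on each of days 2, 3 and 4) were given Activin A (20 ng/ml), bFgf2 (12 ng/ml) and KSR (1%), with no agent that acts on Wnt. EpiSCs (primed epiblast stem cells, 2 libraries) had the same growth factors, 15% KSR and 5 µM XAV939, and were kept on mitomycin-treated mouse embryonic fibroblasts. The fPSCs (formative pluripotent stem cells, stabilised from Epiblastoids on Matrigel) had the growth factors and XAV939 without KSR. They make up 10 libraries: the first passage (P1), 7 long-term libraries and 1 each of lines derived from epiblasts of embryonic days 5.5 and 6.5 at passage 10. The long-term libraries came in 2 deposits, which name different library protocols. P10, P20 and P30 belong to the first deposit with all the other groups, and CMT P11 (thawed cells), 46C P24, BVSC P14 and ROSAmTmG P12, named after 4 parental lines, to the second. The labels of the second deposit print 5 mM for XAV939 where those of the first print 5 µM. No label says that replicates were separate cultures, so a p-value measures only the spread between these libraries. The study describes P10, P20 and P30 as passages of the line CMT. The fits treat them as separate points, so p-values for fPSCs are too small to that extent. XAV939 was in 12 libraries and absent from 7, and in every case it came with another cell type or culture, so that the agent and the cell type cannot be told apart.

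In the canonical Wnt pathway, a complex built on the scaffold Axin marks β-catenin for destruction. Wnt ligands stop this complex, β-catenin enters the nucleus and binds factors of the TCF/LEF family, and target genes are transcribed. Tankyrases send Axin to degradation, so an inhibitor such as XAV939 keeps Axin and lowers β-catenin. Several targets feed back on the pathway: Axin2 encodes a second scaffold of the destruction complex, Nkd1 a protein that binds Dishevelled, and Dkk1 a secreted inhibitor that binds the Lrp co-receptors. Sp5 and Sp8 encode zinc finger transcription factors, Lef1, Tcf7 and Tcf7l1 the DNA-binding partners of β-catenin, of which Tcf7l1 acts mostly as a repressor in mESCs, and Cdx1 a homeobox factor of the posterior embryo.

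The sequence just upstream of the members was searched for CTTTGA or its reverse complement TCAAAG, a core that TCF/LEF factors bind. The mm9 assembly was used, to which the study aligned. The core was in the 250 bases upstream of 4 of 9 members, against 13.4% of all 22072 protein-coding promoters. The longer CTTTGAT, on either strand and always overlapping the core, was in 4 of 9, against 3.06% of promoters, and CTTTGATC in 1 of 9, against 0.711%. Sp5 had the core at bases -204 and -104 before its annotated start, Nkd1 at -73 and Tcf7 at -195, where -1 is the last base before the start. Cdx1 was the remaining match. Axin2, Lef1 and Sp8 held none of these letters in 1000 upstream bases, and over that length the core was in 6 of 9 members and in 50% of promoters. A match is a description of the letters and not a bound site. The search took these letters alone, upstream of 1 annotated start of each gene, and Axin2 has 7 annotated starts. The lack of a match therefore does not show that a gene has no TCF/LEF site. The upstream stretches of the 3 printed matches are given with the core in capitals, followed by that of Axin2, the member most used as a readout, which had none.
Sp5 (chr2:70312730-70312979, plus strand): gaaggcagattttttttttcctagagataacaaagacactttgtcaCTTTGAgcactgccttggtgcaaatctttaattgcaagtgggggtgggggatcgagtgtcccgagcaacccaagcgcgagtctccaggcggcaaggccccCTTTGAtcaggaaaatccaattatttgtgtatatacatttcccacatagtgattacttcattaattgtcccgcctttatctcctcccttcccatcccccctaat
Nkd1 (chr8:91044993-91045242, plus strand): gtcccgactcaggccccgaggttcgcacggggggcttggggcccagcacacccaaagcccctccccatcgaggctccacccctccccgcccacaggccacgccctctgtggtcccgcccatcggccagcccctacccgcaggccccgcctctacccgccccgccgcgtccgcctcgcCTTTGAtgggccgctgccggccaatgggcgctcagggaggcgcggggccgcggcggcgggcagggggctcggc
Tcf7 (chr11:52096682-52096931, minus strand): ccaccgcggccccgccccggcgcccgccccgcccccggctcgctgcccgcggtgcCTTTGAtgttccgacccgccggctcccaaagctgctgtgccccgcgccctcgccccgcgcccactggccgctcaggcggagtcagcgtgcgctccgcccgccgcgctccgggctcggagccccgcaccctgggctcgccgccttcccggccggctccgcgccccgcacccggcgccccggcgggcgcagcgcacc
Axin2 (chr11:108781413-108781662, plus strand): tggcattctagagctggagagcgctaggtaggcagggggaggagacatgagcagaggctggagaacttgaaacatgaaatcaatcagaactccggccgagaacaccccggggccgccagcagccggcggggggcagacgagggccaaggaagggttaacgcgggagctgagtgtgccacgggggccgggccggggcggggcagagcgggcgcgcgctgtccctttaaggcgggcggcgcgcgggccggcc
G and C made up 46% of the Sp5 stretch and 78% of that of Nkd1.

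Over the whole series, FPKM summed to 307394 to 414727 per library and 10034 to 10933 genes were at 1 FPKM or more. Depth is unknown, since read counts are not part of the table. The labelled cell types were checked against markers: Pou5f1 was lowest in the EpiSCs, at 225.9 and 233.8 FPKM, and ran from 391.9 to 1025 FPKM in the other 17 libraries. The summed level of 20 fibroblast genes was 755.5 and 914.4 FPKM in the EpiSCs and 5.77 to 47.8 FPKM elsewhere. The sum of 15 endoderm genes was highest in Epiblastoids of day 4 (495.9 FPKM) and in fPSCs 46C P24 (431.8 FPKM), and that of 12 genes of primitive streak and mesoderm was also highest in these libraries, at 822.8 and 255.7 FPKM. In a bulk library, more cells of a type and more RNA per cell cannot be told apart.

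Among the 4 replicated groups, Axin2 was highest in mESCs and lowest in EpiLCs, with EpiSCs and long-term fPSCs between them. Its level was 23.2 and 16.3 FPKM in the mESCs, 3.22 and 1.91 FPKM in the EpiLCs and 5.82 and 8.46 FPKM in the EpiSCs. The 7 long-term fPSC libraries ran from 5.79 through a median of 9.76 to 16.8 FPKM. The ranges overlap between EpiSCs and fPSCs, and between fPSCs and mESCs through P30 alone, and both EpiLC libraries lie below all others of these groups. In 1 limma fit over these groups, on the log2(FPKM + 1) scale, Axin2 was higher in fPSCs than in EpiLCs by 1.57 (SE 0.33, adjusted p 0.00548), and higher in EpiSCs than in EpiLCs by 1.20 (SE 0.41, limma adjusted p 0.0356). Without EpiLCs 2 the first difference was 1.31, at an adjusted p of 0.108. The second lost its call without either EpiSC library (differences of 1.43 and 0.96) or without EpiLCs 2 (0.93). It was also lost under upper-quartile scaling (limma adjusted p 0.0607) and with no filter on low values (0.0729). Against mESCs, Axin2 fell by 0.97 in fPSCs (SE 0.33, limma adjusted p 0.0283), by 1.35 in EpiSCs (SE 0.41, limma adjusted p 0.0157) and by 2.55 in EpiLCs (SE 0.41, limma adjusted p 4.09e-04). The fall in EpiSCs was not called without EpiSCs 1 or without mESCs 1 (limma adjusted p 0.106 and 0.105). The fall in fPSCs was not called with the fPSCs of the first deposit alone (-0.59, limma adjusted p 0.0957) or without either mESC library (-0.73 and -1.21). Nor was it called under upper-quartile scaling (limma adjusted p 0.0602), with no filter on low values (0.0629) or with all 10 fPSC libraries (0.0799). Between EpiSCs and fPSCs the difference was -0.38, with a 95% interval of -1.09 to 0.33.

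**Figure D1:**
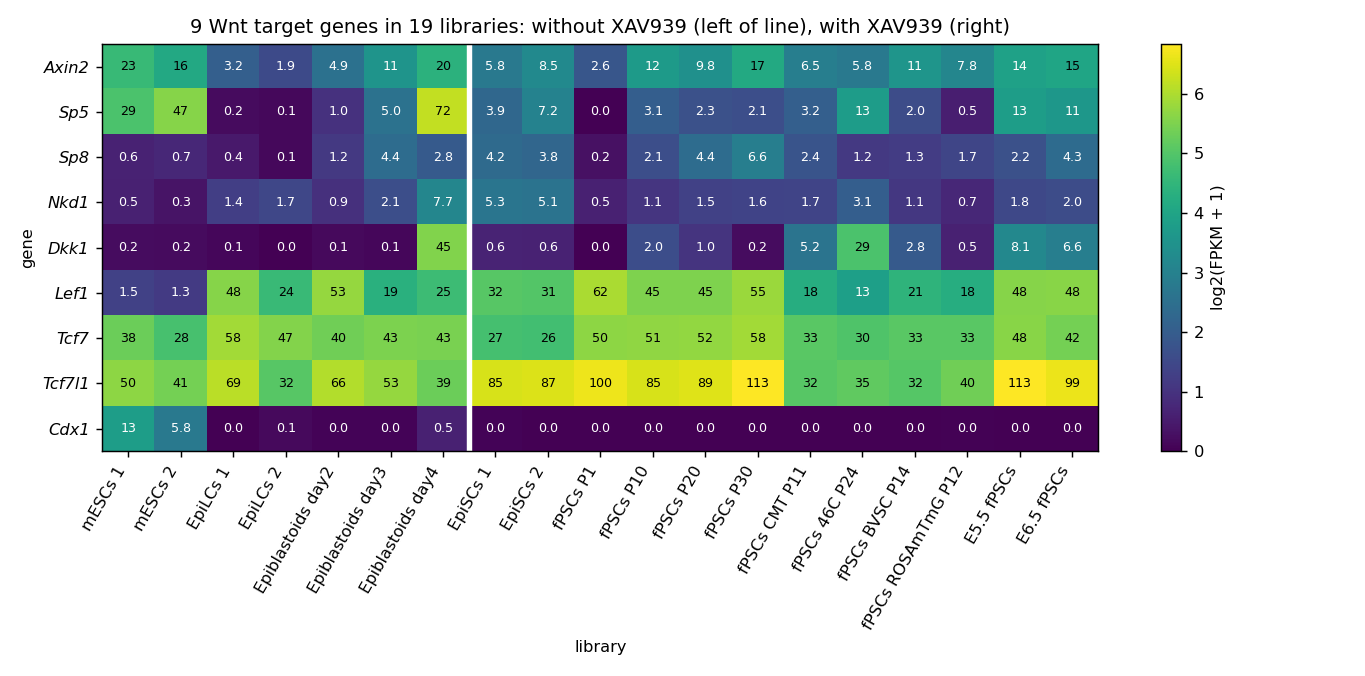
Heat map of the 9 genes (rows) in the 19 libraries (columns), with libraries without XAV939 left of the white line and those with it to the right. Colour gives log2(FPKM + 1) and the printed figures are rounded FPKM: Axin2 and Cdx1 are high in both mESC libraries, where Lef1 is at 1.52 and 1.26 FPKM, and Sp5 is highest on day 4 of Epiblastoids (72.3 FPKM).

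Sp5 was also highest in mESCs and lowest in EpiLCs, over a wider range. It stood at 29.0 and 47.0 FPKM in mESCs, at 0.158 and 0.103 FPKM in EpiLCs and at 3.89 and 7.20 FPKM in EpiSCs. The long-term fPSCs ran from 0.480 (ROSAmTmG P12) through a median of 2.26 to 12.8 FPKM (46C P24). Every EpiSC and long-term fPSC library lay above both EpiLC libraries and below both mESC libraries. The difference from EpiLCs was called for EpiSCs (2.49, SE 0.72, limma adjusted p 0.0170) and not for fPSCs (1.73, SE 0.58, limma adjusted p 0.0618). Without 46C P24 the value for fPSCs was 1.42 and the limma adjusted p 0.0197, and without ROSAmTmG P12 it was 1.96, at an adjusted p of 0.0206. Leaving out any 1 of the 4 EpiSC and EpiLC libraries other than EpiSCs 1 ended the call for EpiSCs (limma adjusted p 0.0621 to 0.124). Against mESCs, Sp5 fell by 3.33 in fPSCs (SE 0.58, limma adjusted p 4.28e-04), by 2.58 in EpiSCs (SE 0.72, adjusted p 0.0101) and by 5.07 in EpiLCs (SE 0.72, adjusted p 1.58e-04). The fall in EpiSCs lost its call without EpiSCs 1 or mESCs 2 (limma adjusted p 0.0748 and 0.0782).

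Sp8, the paralogous factor, was low in mESCs, unlike Sp5. Its levels were 0.568 and 0.691 FPKM in mESCs, 0.386 and 0.0976 FPKM in EpiLCs and 4.16 and 3.75 FPKM in EpiSCs, and fPSCs ran from 1.19 through a median of 2.10 to 6.58 FPKM. All 9 libraries of EpiSCs and long-term fPSCs were above all 4 of mESCs and EpiLCs. Among the replicated groups Sp8 reached 1 FPKM in EpiSCs and fPSCs alone. It passed the filter on low values only through the groups where it is high. This lack of overlap and the calls for Sp8 rest on that choice. On the log2(FPKM + 1) scale Sp8 rose against EpiLCs by 1.49 in fPSCs (SE 0.39, limma adjusted p 0.0199) and by 2.00 in EpiSCs (SE 0.48, limma adjusted p 0.00622), and against mESCs by 1.09 (SE 0.39, limma adjusted p 0.0368) and 1.60 (SE 0.48, limma adjusted p 0.0153). The fPSC call against EpiLCs was lost without either EpiLC library (limma adjusted p up to 0.186), with no filter on low values (0.0536) and with all 10 fPSC libraries (0.0589). That against mESCs was lost without either mESC library (differences of 1.03 and 1.14), and without P20 (limma adjusted p 0.0523) or CMT P11 (at the limit of 0.05). It was also lost with no filter on low values (0.0896), all 10 fPSC libraries (0.0931) or only the groups compared (0.0632). The rise of EpiSCs over mESCs was lost without any 1 of the 4 libraries compared (differences of 1.54 to 1.66). The rise of EpiSCs over EpiLCs was lost without EpiLCs 2 (limma adjusted p 0.0524).

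Nkd1 was highest among the replicated groups in EpiSCs. It was at 0.544 and 0.295 FPKM in mESCs, at 1.39 and 1.75 FPKM in EpiLCs and at 5.31 and 5.06 FPKM in EpiSCs, while fPSCs ran from 0.696 through a median of 1.52 to 3.09 FPKM (46C P24). Both EpiSC libraries lay above all the others but Epiblastoids of day 4 (7.74 FPKM), and fPSCs spanned the EpiLC values. Nkd1 rose in EpiSCs by 1.27 over EpiLCs (SE 0.31, limma adjusted p 0.00703), by 1.33 over fPSCs (SE 0.25, limma adjusted p 0.00135) and by 2.13 over mESCs (SE 0.31, limma adjusted p 1.13e-04). It was the only member called between EpiSCs and fPSCs, where 32.3% of the 12513 genes tested were called. Between fPSCs and EpiLCs the difference was -0.06 (limma adjusted p 0.917). Over mESCs, Nkd1 rose in fPSCs by 0.80 (SE 0.25, limma adjusted p 0.0204). That call was lost without either mESC library (differences of 0.92 and 0.67) and with no filter on low values (limma adjusted p 0.0508). The EpiSC libraries are also those with the high fibroblast sum, and whether feeder RNA has a part in these values was not tested.

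Dkk1 varied widely among the fPSCs themselves. It was at or under 0.173 FPKM in mESCs and EpiLCs, with EpiLCs 2 listed at 0, and at 0.610 and 0.575 FPKM in EpiSCs. The long-term fPSCs ran from 0.165 (P30) through a median of 2.04 to 28.9 FPKM (46C P24), and their SD of 10.3 was above their mean of 5.81 FPKM. No long-term fPSC library fell within the EpiLC range, yet the difference of 1.79 (SE 0.88) was not called (limma adjusted p 0.214), nor was that from mESCs (1.63, limma adjusted p 0.155). Among the replicated groups Dkk1 reached 1 FPKM in fPSCs alone, so it passed the filter on low values only through the group where it is high.

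The TCF/LEF genes followed other orders of the groups. Lef1 was at 1.52 and 1.26 FPKM in mESCs, 47.7 and 23.7 FPKM in EpiLCs, 32.5 and 30.9 FPKM in EpiSCs and 13.4 through a median of 20.8 to 54.7 FPKM in the long-term fPSCs. Both mESC libraries were far below every other library. Against mESCs, Lef1 rose by 3.55 in fPSCs (SE 0.47, limma adjusted p 5.13e-05), 3.78 in EpiSCs (SE 0.59, limma adjusted p 1.97e-04) and 3.86 in EpiLCs (SE 0.59, limma adjusted p 2.92e-04). The difference of fPSCs from EpiLCs was -0.31, with a 95% interval of -1.34 to 0.72.

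Tcf7 was at 38.3 and 27.8 FPKM in mESCs, 58.4 and 46.5 FPKM in EpiLCs and 27.01 and 26.1 FPKM in EpiSCs, with fPSCs at 29.8 through a median of 33.2 to 58.5 FPKM. EpiSCs were the lowest group, and fPSCs spanned most of the range of the others. Tcf7 was lower in EpiSCs than in EpiLCs by the called difference of -0.95 (SE 0.32, limma adjusted p 0.0351). That call was lost without any 1 of the 4 libraries and with no filter on low values (limma adjusted p 0.0687). Tcf7l1 was at 49.8 and 41.1 FPKM in mESCs, 69.3 and 32.4 FPKM in EpiLCs, 85.3 and 87.2 FPKM in EpiSCs and 31.9 through a median of 39.5 to 113 FPKM in fPSCs. In the fit over all 4 groups no difference in Tcf7l1 was called, and that of fPSCs from EpiLCs was 0.17 with a 95% interval of -0.88 to 1.22.

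Cdx1 was a gene of the mESC libraries. It was at 13.0 and 5.75 FPKM there and at most 0.538 FPKM (Epiblastoids of day 4) in the other 17 libraries, in 11 of which it was listed at 0. The difference from mESCs was -3.27 in fPSCs (SE 0.19), -3.25 in EpiSCs (SE 0.23) and -3.20 in EpiLCs (SE 0.23). Cdx1 reached 1 FPKM in the mESCs alone, so it passed the filter on low values only through the group where it is high, and its calls rest on that choice.

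Counted over the members, 2 of 9 were called between fPSCs and EpiLCs, both higher in fPSCs (Axin2 and Sp8), where 13.8% of the 12513 genes tested were called and 5.66% were called higher. The groups did not overlap for 4 members, all higher in fPSCs (Axin2, Sp5, Sp8 and Dkk1), against 12.5% of genes in that direction. Of these, Dkk1 passed the filter on low values only through fPSCs, and Sp8 only through EpiSCs and fPSCs. Their place in this count rests on that choice. The members' median difference was 0.17 and that of all genes 0.01. Between EpiSCs and EpiLCs 5 of 9 were called, 4 of them higher, against 35.9% of genes (20.4% higher, 15.5% lower), with a median of 0.85 against -0.03. In this fit over all 4 groups, no member was called higher in EpiLCs than in fPSCs or EpiSCs, except Tcf7 in the comparison with EpiSCs. Against mESCs, 6 of 9 members were called in fPSCs (3 higher, 3 lower; 40.3% of genes, 17.3% higher and 23.0% lower), 6 of 9 in EpiSCs (3 higher, 3 lower; 47.8%, 23.1% higher and 24.7% lower) and 4 of 9 in EpiLCs (1 higher, 3 lower; 29.6%, 12.2% higher and 17.4% lower). These comparisons share their control libraries. With 1 library left out, the count fell to 0 members for fPSCs against EpiLCs (without EpiLCs 2, with 2 members at an unadjusted p under 0.05 in limma), to 1 for EpiSCs against EpiLCs (without EpiLCs 2) and to 2 for fPSCs against mESCs (without either mESC library, when Cdx1 no longer passes the filter). Cdx1, which passed the filter only through mESCs, is 1 of the lower members in each of the 3, and Sp8, which passed it only through EpiSCs and fPSCs, is 1 of the higher ones in EpiSCs and fPSCs, also against EpiLCs. Axin2, Sp5 and Cdx1 were the members lower in all 3 of them, and Lef1 was higher in all 3.

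**Figure D2:**
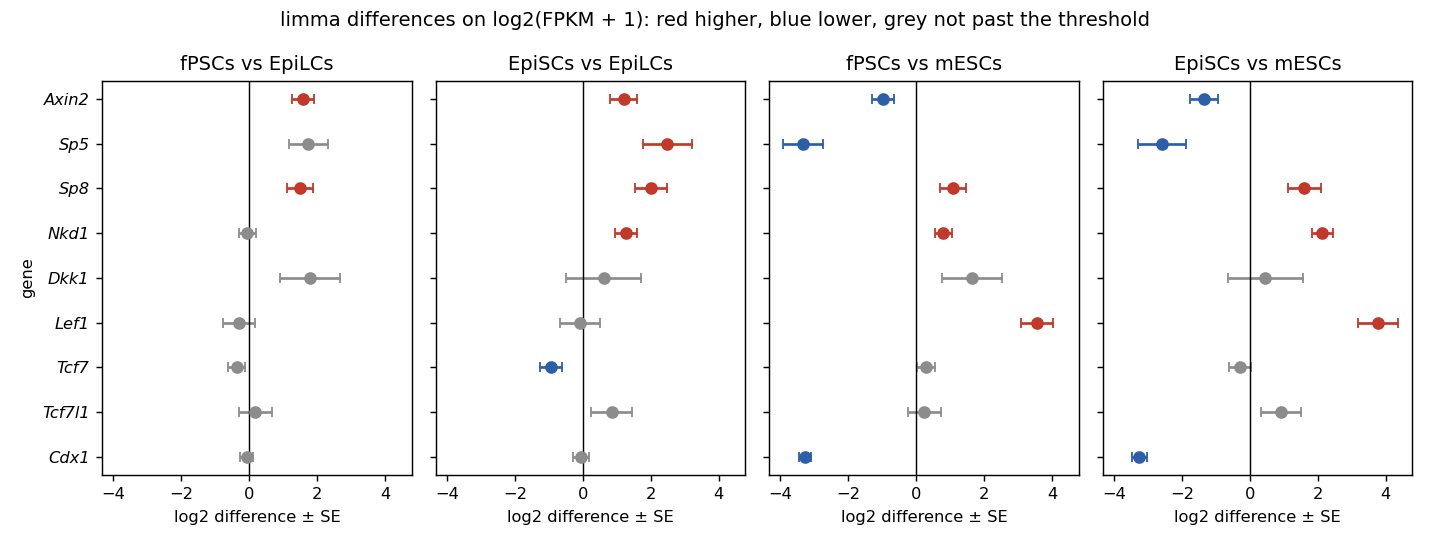
Differences on the log2(FPKM + 1) scale (x axis) with bars of 1 SE for the 9 genes (y axis) in 4 comparisons from limma, red and blue where higher or lower past the threshold (adjusted p under 0.05 and a fold of 1.5) and grey where not. Axin2 lies at 1.57 for fPSCs against EpiLCs and at -0.97 for fPSCs against mESCs.

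With all 12 XAV939 libraries set against the 7 without, limma called 0 of 9 members, where 12.2% of the 12682 genes tested were called. At an unadjusted p under 0.05 there were 3: Cdx1 (-1.06, adjusted p 0.0800), Lef1 (1.15, adjusted p 0.154) and Sp8 (0.72, adjusted p 0.146). The set without XAV939 includes the mESCs, which were kept with the Wnt-activating Chir99021. Cdx1 was at 13.0 and 5.75 FPKM in these and at most 0.538 FPKM in all other libraries. Lef1 was at 1.52 and 1.26 FPKM in the mESCs and at 13.4 FPKM or more in all others. Axin2 ran from 2.58 through 9.11 to 16.8 FPKM with XAV939 and from 1.91 through 10.6 to 23.2 FPKM without it, and the difference was 0.03 with a 95% interval of -0.79 to 0.84. For Sp5 the range was 0 to 13.0 FPKM with XAV939 and 0.103 to 72.3 FPKM without. All 9 members overlapped between these sets, as did all but 0.686% of genes. Within the first deposit alone Tcf7l1 was called (0.97, limma adjusted p 0.0021), and the sets pool cell types, so these p-values treat related libraries as separate points.

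Epiblastoids give a series of days without XAV939, and fPSCs P1 the first passage with it, each as 1 library with no replicate check. No label gives the day of P1, and its medium lacked the 1% KSR of the Epiblastoids. P1 is therefore not matched to any of the days in time or medium. From day 2 to day 3 to day 4, Axin2 stood at 4.85, 10.6 and 20.2 FPKM, Sp5 at 0.954, 4.97 and 72.3 FPKM, and Nkd1 at 0.947, 2.10 and 7.74 FPKM. The values of all 3 increased from day to day, and those of Sp5 on day 4 exceeded both mESC libraries. Dkk1 was at 0.122 and 0.0946 FPKM on days 2 and 3 and at 45.1 FPKM on day 4. Lef1 went the other way, from 52.9 to 19.2 and 24.6 FPKM, and Sp8 was highest on day 3 (1.18, 4.36 and 2.83 FPKM). Tcf7 stayed between 39.7 and 43.5 FPKM, and Tcf7l1 was at 65.7, 53.4 and 38.7 FPKM.

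In fPSCs P1, Axin2 was at 2.58 FPKM, Nkd1 at 0.544 and Sp8 at 0.240 FPKM, and Sp5 and Dkk1 were listed at 0. Lef1 (62.1 FPKM) and Tcf7l1 (100.3 FPKM) were above their levels in every Epiblastoid library. Set against day 4 as log2 ratios of FPKM + 1, 5 members were lower in P1 by 1 or more (Axin2 -2.57, Nkd1 -2.50, Sp8 -1.63, Sp5 and Dkk1) and 2 higher (Lef1 1.30, Tcf7l1 1.35), against 17.3% of genes past that limit (11.1% lower and 6.21% higher). The median of the 8 members at 1 FPKM or more in either library was -2.06, and that of all genes -0.05. On the same comparison 11 of 11 genes of streak and mesoderm and 8 of 9 of endoderm were lower by 1 or more. Sox17, Gata6 and Mixl1 stood at 68.7, 38.4 and 254 FPKM on day 4, and the part of such cells in the members' levels was not tested. Against day 3, 4 members were lower by 1 or more (Axin2 -1.70, Sp5, Sp8 -2.11 and Nkd1 -1.01). In that comparison 1 member was higher (Lef1 1.64), with 7.25% of all genes lower and 2.19% higher. The endoderm sum was 4.25 FPKM on day 3, but that of streak and mesoderm was 56.0 FPKM, against 6.25 FPKM in P1. Of 4 streak and mesoderm genes compared with day 3, 3 were lower by 1 or more (median -2.48), and of 3 endoderm genes 0. The part of streak cells in the members' day 3 levels was not tested. Against day 2 the ratio of Axin2 was -0.71 and no member passed 1, where 6.15% of genes did.

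**Figure D3:**
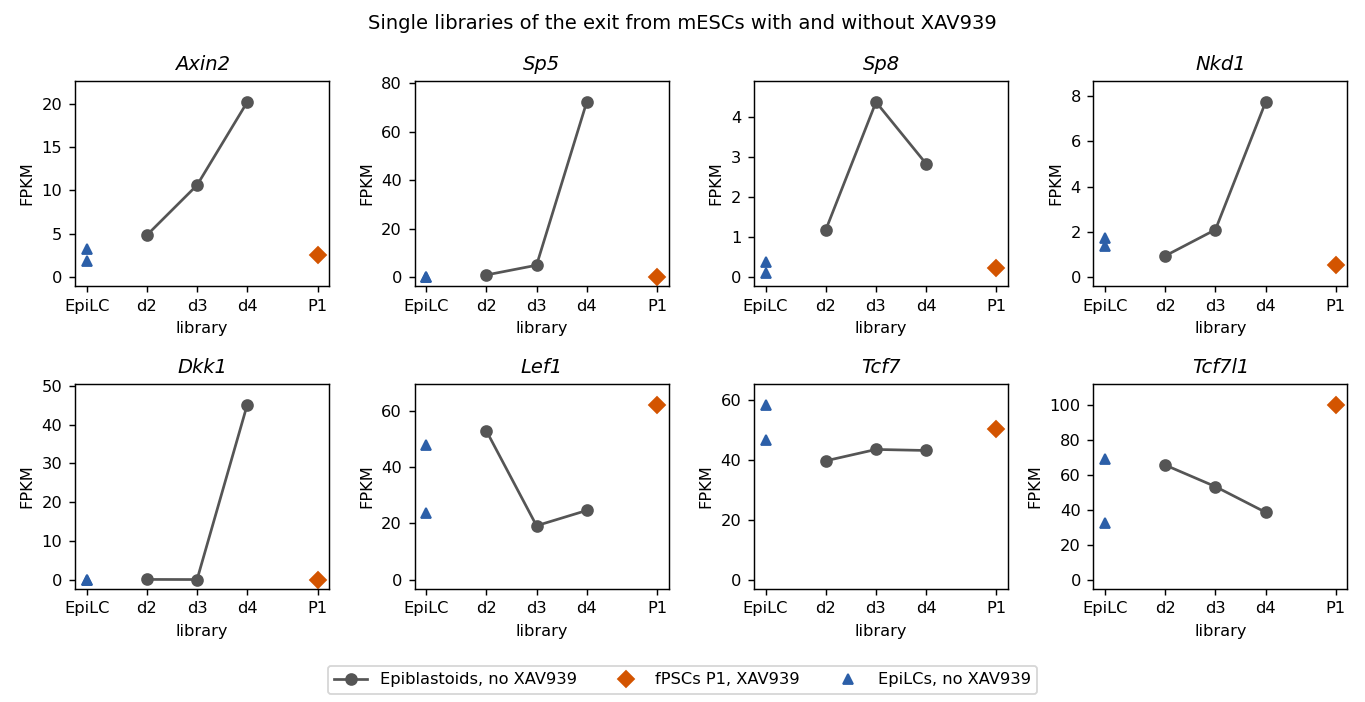
FPKM (y axis, a scale for each panel) of the members without Cdx1 in both EpiLC libraries, Epiblastoids of days 2, 3 and 4 (d2, d3, d4) and fPSCs P1 (x axis), 1 point a library. Axin2 stands at 4.85, 10.6 and 20.2 FPKM over the days and at 2.58 FPKM in P1, between the EpiLC values of 3.22 and 1.91 FPKM.

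The low values of P1 were not those of long-term culture. Axin2, Sp5, Sp8, Nkd1 and Dkk1 in P1 were below the range of all 7 long-term fPSC libraries, and Lef1 was above it. The E6.5 line lay within that range for every member, and the E5.5 line for every member but Sp5. The share of all genes outside that range was not taken for P1 or for these lines. Whether the members differ from other genes here is thus unknown. Sp5 was at 13.0 FPKM in the E5.5 line and 11.2 FPKM in the E6.5 line, against a highest long-term value of 12.8 FPKM. Axin2 in these lines was at 14.04 and 15.2 FPKM, and Dkk1 at 8.10 and 6.58 FPKM.

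Among the 7 long-term libraries, 5 of 9 members were called lower in the second deposit than in the first, and 0 were called higher, with 0 higher at an unadjusted p under 0.05. In a limma fit with the deposits as separate groups, a comparison added after the values were seen, 25.9% of genes were called, 7.74% lower and 18.2% higher. Tcf7l1 was at 85.5, 89.5 and 113 FPKM in P10, P20 and P30 and at 32.5, 35.0, 31.9 and 39.5 FPKM in CMT P11, 46C P24, BVSC P14 and ROSAmTmG P12 (-1.44, SE 0.21, limma adjusted p 5.68e-04). Lef1 was at 44.7, 44.6 and 54.7 FPKM and at 18.3, 13.4, 20.8 and 18.0 FPKM (-1.41, SE 0.21, limma adjusted p 6.15e-04). These genes did not overlap between the deposits, as 14.8% of genes did not with the second lower, nor did Tcf7, at 51.2 to 58.5 FPKM in the first and 29.8 to 33.2 FPKM in the second (-0.72, limma adjusted p 0.00144). Sp8 (-0.94, limma adjusted p 0.0140) and Axin2 (-0.67, limma adjusted p 0.0469) were also lower. Dkk1 was at 1.08 FPKM on average in the first deposit and at 9.36 FPKM in the second, an uncalled difference of 1.57 (limma adjusted p 0.115). The deposit and the parental line cannot be told apart for 3 of the 4 later libraries. The study gives the first deposit's line as CMT. For Lef1, Tcf7 and Tcf7l1, CMT P11 stood with the other later libraries. It is 1 library of thawed cells, at another passage than P10, P20 and P30. Whether the deposit, the thawing or the passage has a part in its values was not tested.

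The deposits also changed calls against EpiLCs, a group of the first deposit. With the first deposit's fPSCs alone, Axin2 was higher by 1.96 (limma adjusted p 0.00105), Sp8 by 2.02 (limma adjusted p 0.00172), Sp5 by 1.62 (limma adjusted p 0.00255) and Tcf7l1 by 0.99 (limma adjusted p 0.0266). With the second deposit's alone, Axin2 was higher by 1.29 (limma adjusted p 0.00806) and Sp8 by 1.08 (limma adjusted p 0.00351), and Lef1 (-0.91, limma adjusted p 0.0294) and Tcf7 (-0.68, limma adjusted p 0.0126) were lower. Axin2 and Sp8 were thus higher in fPSCs with the libraries of either deposit. Sp8 passed the filter on low values only through EpiSCs and fPSCs, and its calls rest on that choice.

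Dkk1, Sp5 and Nkd1 were highest among the long-term fPSCs in the library with the most endoderm and streak RNA. In 46C P24, with Sox17 at 50.6, Gata6 at 21.8 and Foxa2 at 81.9 FPKM, they were at 28.9, 12.8 and 3.09 FPKM. In P30, where the endoderm sum was 12.4 FPKM, they were at 0.165, 2.09 and 1.60 FPKM, and in ROSAmTmG P12, at 15.1 FPKM, they were at 0.535, 0.480 and 0.696 FPKM. Axin2 did not follow this order: it was at 5.79 FPKM in 46C P24 and at 16.8 FPKM in P30. The part of endoderm or streak cells in the levels of Dkk1, Sp5 and Nkd1 was not tested.

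**Figure D4:**
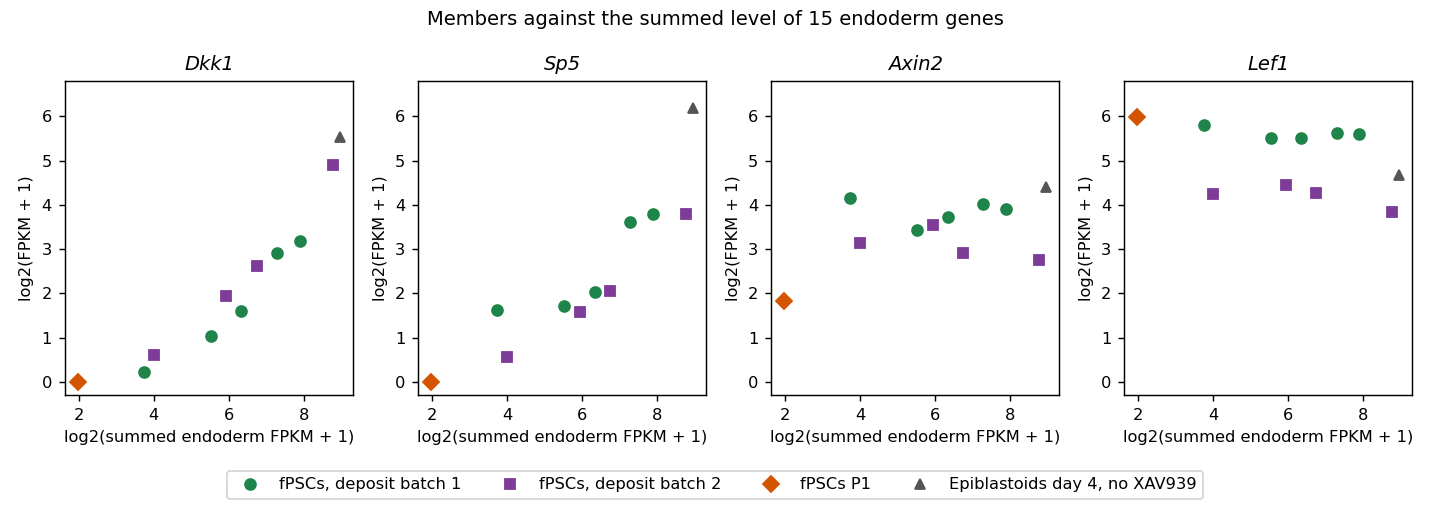
Level of Dkk1, Sp5, Axin2 and Lef1 as log2(FPKM + 1) (y axis) against the log2 of the summed FPKM of 15 endoderm genes plus 1 (x axis), 1 point a library, for the 10 fPSC libraries (the epiblast-derived lines are drawn with the first deposit) and Epiblastoids of day 4. Dkk1 is highest among fPSCs in 46C P24, the fPSC library with the largest endoderm sum (431.8 FPKM), where Axin2 is at 5.79 FPKM.

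Over all 19 libraries the genes most like each member, by Pearson's r of log2(FPKM + 1) among 12682 genes, differed from member to member. Axin2 was closest to Cabp7 (0.895), Smyd2 (0.880) and Pald1 (0.844). Dkk1 was closest to the endoderm factors Gata6 (0.991) and Sox17 (0.983) and to Cfc1 (0.981), the co-receptor of Nodal. Cdx1 was closest to A2m and Tnfrsf13b (both 0.993) and Tlx2 (0.991), Lef1 to Zcchc3 (0.968) and Efs (0.963), Sp5 to Mfsd12 (0.940), Sp8 to WI1-2788A17.1 (0.875), Nkd1 to Chst7 (0.930), Tcf7 to Tmem170 (0.835) and Tcf7l1 to Ubap2 (0.967). Among the members, Axin2 and Sp5 had an r of 0.76, and Lef1 and Cdx1 one of -0.87. These libraries share cell types and, within groups, cultures, so the values describe this set only.

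Chromatin at the members was measured in fPSCs P10, with 1 file per mark, so no spread can be given. H3K4me3 marks active or poised promoters and H3K27me3 is the mark of Polycomb repression. Mean H3K27me3 within 5000 bp of the start was 3.50 RPKM at Sp5, 2.56 at Cdx1, 2.50 at Sp8, 2.29 at Nkd1 and 2.13 RPKM at Dkk1, where the median protein-coding gene had 0.379 RPKM. These 5 of 9 members were at or above the 90th percentile, as were 10% of genes. At Lef1 (0.721 RPKM), Tcf7l1 (0.386), Axin2 (0.321) and Tcf7 (0.263 RPKM) the mark was below that limit, and these are the 4 members at the highest levels in the fPSC libraries P10 to P30.

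H3K4me3 was at or above the median of 1.13 RPKM at 8 of 9 members. It was highest at Lef1 (6.98 RPKM, percentile 99.8) and Sp8 (4.88 RPKM, percentile 99.2), and Cdx1 was the exception at 1.11 RPKM. At Sp5, Sp8, Nkd1 and Dkk1 a high H3K27me3 signal and H3K4me3 above the median were found at the same promoter, a state of 4 of 9 members and of 7.3% of genes. At Axin2 the H3K4me3 lay mostly downstream of the annotated start, at 3.56 RPKM against 1.32 RPKM upstream, in a gene with 7 annotated starts.

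**Figure D5:**
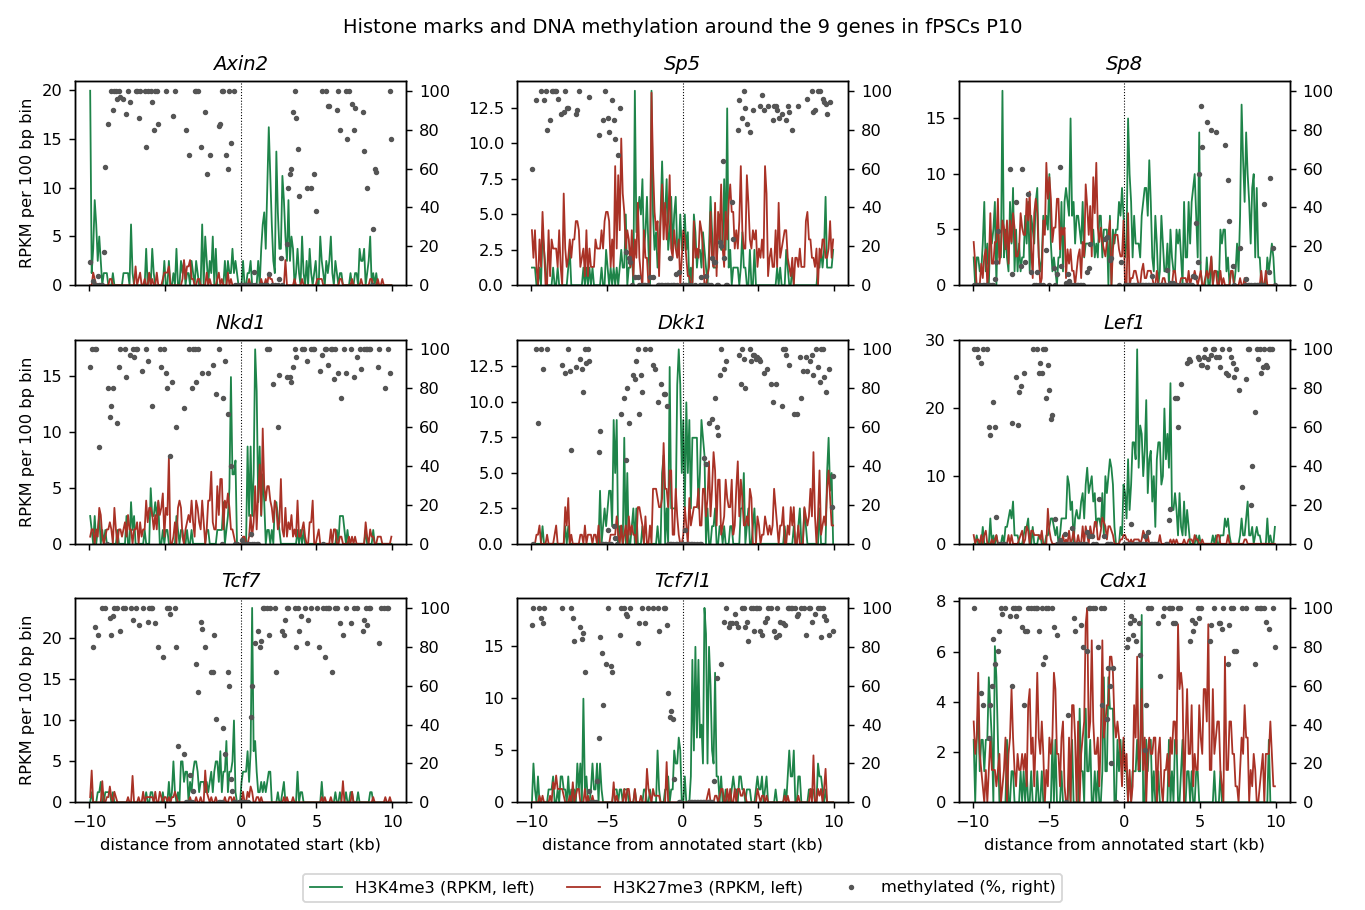
H3K4me3 and H3K27me3 (left y axis, RPKM in 100 bp bins, a scale for each panel) and methylated percent per window (right y axis, points) around the annotated start of each member in fPSCs P10, by distance from the start in kb (x axis). Sp5, Cdx1, Sp8, Nkd1 and Dkk1 hold mean H3K27me3 of 2.13 to 3.50 RPKM within 5000 bp, and the other 4 members 0.263 to 0.721 RPKM.

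DNA methylation within 1000 bp of the start was below 20% at 6 of 9 members, against 32.5% of genes. It was 0.389% at Dkk1, 0.909% at Lef1, 1.69% at Sp5, 2.79% at Sp8, 8.77% at Nkd1 and 15.5% at Tcf7l1. Axin2 (22.6%) and Tcf7 (22.1%) were near that limit, and Cdx1 stood at 71.3%, against a median of 35.8% over genes. Within 500 bp the values were 11.1% at Axin2, 0% at Tcf7 and Tcf7l1 and 88.0% at Cdx1. The share of all genes under 20% was not taken for this shorter stretch, so the members are not counted there. Each value within 1000 bp is a mean over 11 to 18 windows of 100 bp whose coverage is unknown. The genes lie on mm9 at chr11:108781663-108812097 (Axin2), chr3:130813389-130927274 (Lef1), chr2:70312980-70315786 (Sp5), chr12:120084802-120091051 (Sp8), chr8:91045243-91118786 (Nkd1), chr11:52065873-52096681 (Tcf7), chr6:72576372-72739248 (Tcf7l1), chr19:30620353-30624155 (Dkk1) and chr18:61178516-61195853 (Cdx1).

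Of the members, 6 could be followed in 182 single fPSCs of 4 clones, sequenced by Smart-seq2 at a median of 23422 counts and 3575 genes per cell. Lef1 had a count in 65.4% of cells (95% Wilson interval 58.2 to 71.9) and Tcf7l1 in 68.7%, at 171 ± 21.6 and 147 ± 48.9 CPM (SD, n = 4 clones). Tcf7 was found in 27.5% of cells at 39.4 ± 8.81 CPM, Sp8 in 12.6% at 14.8 ± 7.04 CPM, Axin2 in 20 of 182 (95% interval 7.23% to 16.4%) at 11.3 ± 5.54 CPM and Nkd1 in 6.04% at 4.94 ± 4.86 CPM. Of genes these cells should lack, Afp had a count in 0.549% of the same cells and Col1a1 in 29.1% (23.0 to 36.1), the latter at 15.6 ± 12.8 CPM. Gata4 (2.75%) had been planned as another, but bulk long-term fPSCs held it at up to 9.10 FPKM. Lef1 and Tcf7l1 passed Col1a1 in both share and CPM. Tcf7 was below it in share and above it in CPM, so no order is read from its share. Axin2, Sp8 and Nkd1 were below Col1a1 on both scales and above Afp in share. At this depth they are read neither as expressed nor as absent. Pou5f1, which every bulk library expressed, had a count in 9.34% of the cells, so a low share in these tables is no sign of absence. Intervals cover counting error only. Sp5, Dkk1 and Cdx1 were not analysed in single cells.

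The rest of the pathway was counted in lists. Between fPSCs and EpiLCs (13.8% called), 8 of 19 tested other Wnt targets rose and none fell, led by Fgf8 (73.3 against 2.07 FPKM, 4.63) and the streak factor T (18.3 against 0.212 FPKM, 3.87). In the same comparison 5 of 7 tested genes of streak and mesoderm rose (median 2.77), T among them, and 2 of 8 of endoderm (median 1.40). The lists of other targets and of streak and mesoderm share T, Eomes and Mixl1, so their counts are not separate observations. The part of streak and endoderm cells in the targets' values was not tested. Of 18 receptors, 2 rose (Ror2 1.48, Fzd10 1.11) and 1 fell. Of 20 cytoplasmic genes, 2 rose (Csnk1e 0.93, Amer1 0.61). Of 13 tested nuclear genes, 2 fell, the co-repressors Tle4 (-1.76) and Ctbp2 (-0.89). Of 17 tested inhibitors, 2 rose, with Dact1 first (1.99), and 2 fell, with Sfrp4 first (-1.70). Among 9 tested genes of Wnt ligands and their secretion, 4 rose, among them Porcn (1.72) and Wls (1.42), which are needed to make and release Wnt ligands.

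Between EpiSCs and EpiLCs (35.9% called), all 7 called genes of ligands and secretion rose, with Wnt7b at 98.9 against 0.185 FPKM (6.35) and Wls at 41.2 against 1.96 FPKM (3.81). Other targets had 7 higher and 2 lower of 19, led by T (4.93) and Cd44 (4.57), and receptors 7 higher and 3 lower of 18 (Fzd1 2.45, Ror2 2.04, Lgr4 -1.49). Fibroblast genes were higher in the same comparison for 13 of 15 tested, and their part in these lists was not tested. Between fPSCs and mESCs (40.3% called), 10 other targets rose and 3 fell of 19. Genes of streak and mesoderm, a list that shares genes with the other targets, rose there for 5 of 7 tested (median 2.64). Those of endoderm rose for 2 of 8 (median 1.35). The part of such cells was not tested. Tbx3 (-5.15) and Notum (-5.07, at 0.0392 against 33.8 FPKM), which encodes an enzyme that inactivates Wnt ligands, fell most, and Fgf8 (5.95) and Myc (4.68) rose most. Of the receptors, Fzd7 (3.02) and Fzd2 (2.98) rose and Fzd10 (-1.60) fell.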

How the data were processed

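Bulk RNA-seq of 19 libraries was deposited by the authors as FPKM, after trimming with cutadapt 1.11, alignment with TopHat2 2.1.1 to the Ensembl mouse cDNA of mm9 and estimation with Cufflinks 2.1.1, as the study's methods and the submitters' processing notes give them. Cufflinks divides fragments between transcripts by a model, so low values carry errors that the table does not show. Of 23608 entries, 4 under repeated names were dropped. Values were taken as log2(FPKM + 1), which understates the change of low genes, and genes that reached 1 FPKM in 2 or more of the fitted libraries were tested with limma 3.58.1 in R 4.3.3 (trend on, robust off). The main fit held mESCs, EpiLCs, EpiSCs and the 7 long-term fPSC libraries, and a second fit the 12 XAV939 libraries against the 7 others. A gene was called at a Benjamini-Hochberg adjusted p under 0.05, taken over all genes tested, and a fold of at least 1.5; an interval is the 95% interval of that fit. The limma step was tested on simulated data. Groups follow the labels.

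ChIP-seq of fPSCs P10 came from the authors as RPKM per bin of 100 bp (mm9, Bowtie2 2.2.2, replicates integrated, with no statement of whether a file holds 1 or both). The MethylC-seq values, also deposited by the authors, are the fraction methylated in each 100 bp window, made with BS-Seeker2, without coverage. Annotated starts of 22072 protein-coding genes on NCBIM37 (mm9) were used. Single-cell counts were deposited by the authors per gene and cell. They held 182 of the hand-picked cells, none of which was filtered out, and clones were read from the column names, where the barcode table had been planned as the source. Counts per clone ran from 1501395 to 4712214. No doublet caller was run, since cells were picked 1 by 1. The Python steps used Python 3.11.15, pandas 2.3.3 and scipy 1.17.1.

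The members, the other lists and the tests were chosen with earlier results of these data known. All 9 members are named. From each other Wnt list, up to 2 called genes with the largest rise and 2 with the largest fall, if 1 group's mean reached 3 FPKM, may be named, and for likeness the 3 genes with the highest r. Alternatives were a pseudocount of 0.1, no filter, upper-quartile scaling, only the groups compared, 1 deposit of fPSCs, all 10 fPSC libraries, the replicate number as a block, and each library left out.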

Additional observations from a re-analysis of the deposited data

Results flagged for a closer look

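Differences between fPSCs and EpiLCs were not the same in the 2 deposits for 5 members. The effect in the second deposit less that in the first was -0.67 for Axin2, -1.41 for Lef1, -0.94 for Sp8, -0.72 for Tcf7 and -1.44 for Tcf7l1 on the log2(FPKM + 1) scale, each past the threshold of limma. The EpiLC libraries are the same in both and cancel, so these are the differences between the deposits' fPSCs. The library protocol cannot be told apart from the deposit for any of the 4 later libraries, and the parental line cannot for 3 of them.

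A library and a clone stood apart from their group by the ratio of their gap to the group's range, a rule that chance meets in about 1 of 20 groups, here among 9 sets of 7 libraries and 6 sets of 4 clones. Cdx1 was listed at 0.0244 FPKM in fPSCs ROSAmTmG P12 and at 0 in the other 6 long-term libraries (ratio 1). Tcf7 in single cells was at 52.6 CPM in clone 1 and at 34.2 to 35.9 CPM in the other clones (ratio 0.908).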

How the results depend on the processing

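Over the alternatives run, of the values of single members 852 kept their direction and their side of the threshold, 43 lost the call, 24 gained one and 5 moved without a test, and no called value changed sign. With a pseudocount of 0.1, 4 members were called between fPSCs and EpiLCs (2 in the main analysis), among them Dkk1, which passed the filter only through fPSCs. Between libraries with and without XAV939, 1 was called (Cdx1 -2.48, limma adjusted p 0.0325, and 0 in the main analysis). Cdx1 passed the filter only through mESCs. With no filter on low values, 1 member was called for fPSCs against EpiLCs, 3 for EpiSCs against EpiLCs (5 in the main analysis) and 3 for fPSCs against mESCs (6). For fPSCs against EpiLCs, 3178 genes and 4 members were called with the first deposit's fPSCs and 2648 genes and 4 members with the second's (1728 and 2), with 53.9% of calls higher in the second, and 1 member with all 10 fPSC libraries. For EpiSCs against fPSCs, 3 members were called with the first deposit and 4 with the second (1). For XAV939, 666 genes were called without mESCs, 800 without mESCs and EpiSCs, 2545 genes and 1 member in the first deposit alone, and 0 with means of the 10 groups in limma, where 2369 genes had an unadjusted p under 0.05 (1541 in the main analysis). The causes were not tested. Upper-quartile scaling moved the median of all genes by about 0.1 or less in the limma comparisons, but for single libraries it went from -0.17 to -0.01 (fPSCs P1 against day 3) and from 0.12 to 0 (day 3 against day 2).

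With 1 library left out in turn, the counts of genes and members called ran from 865 to 1823 and 0 to 3 for fPSCs against EpiLCs (865 genes without EpiLCs 1, 890 genes and 0 members without EpiLCs 2, where 2 members had an unadjusted p under 0.05 in limma), from 2425 (without EpiSCs 2; 2871 without EpiLCs 2) to 3621 and 1 (without EpiLCs 2) to 3 for EpiSCs against EpiLCs, from 3413 to 5173 and 2 (without mESCs 1 or 2) to 6 for fPSCs against mESCs, from 4013 to 4724 and 3 (without EpiSCs 1, mESCs 1 or mESCs 2) to 5 for EpiSCs against mESCs, from 2291 (without mESCs 2; 2416 without mESCs 1) to 3019 and 3 to 4 for EpiLCs against mESCs, from 1523 (without EpiSCs 2; 2455 without EpiSCs 1) to 4463 and 1 to 2 (without 46C P24) for EpiSCs against fPSCs, and from 956 to 2152 and 0 to 0 for XAV939 (956 and 967 genes without mESCs 1 or 2). Where a group is left with 1 library, that library is assumed to vary like the others. The replicate numbers of mESCs, EpiLCs and EpiSCs are only shared numbers: deviations of same-numbered libraries had an r of 0.20 (mESCs and EpiLCs), -0.20 (mESCs and EpiSCs) and -0.13 (EpiLCs and EpiSCs). With the replicate block, 5196 genes and 5 members were called for EpiSCs against EpiLCs, 6685 and 7 for EpiSCs against mESCs (Tcf7l1 added, 0.92, limma adjusted p 0.0323), and 4107 and 5 for EpiLCs against mESCs (Nkd1 added, 0.86, limma adjusted p 0.0178). The counts at promoters and in single cells were within 1.5 times of each other in the alternatives tried. FPKM without counts leave the precision of members under 1 FPKM unknown.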
